A study of Mus musculus with 19 samples.

Results

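The data were the counts of 10 mouse genes of prostaglandin and leukotriene synthesis in RNA-sequencing libraries of CD11b+ brain cells. The genes were Pla2g4a, Ptgs1, Ptgs2, Ptges, Hpgds, Ptger2, Ptger4, Alox5, Alox5ap and Ltc4s. They were chosen by name as enzymes and receptors of this pathway, with earlier results of these data known. No rule on their values was used. They were found through their Ensembl identifiers in a table of 56980 genes. All 10 were in the table, and all 10 passed the filter on low counts, among 18739 genes tested.

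Prostaglandins and leukotrienes are lipid signals made from arachidonic acid. A phospholipase frees this fatty acid from membrane phospholipids. Cyclooxygenases then turn it into prostaglandin H2, from which terminal synthases make prostaglandin E2, prostaglandin D2 and thromboxane, while 5-lipoxygenase starts the leukotriene branch. In the brain, prostaglandin E2 is known for its part in fever and sickness behaviour, and microglia, the resident macrophages of the brain, are known to carry cyclooxygenase-1 and hematopoietic prostaglandin D synthase.

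Cells were isolated from the brains of 19 male mice aged 3 to 4 months, which were *PARK7*/DJ-1 KO mice or their wildtype littermates. The mice had received an intraperitoneal injection of LPS at 4 µg/g body weight or of PBS, the saline vehicle, 6 h before. LPS, lipopolysaccharide, is a component of the bacterial cell wall. The groups were 4 wildtype mice with PBS, 5 wildtype mice with LPS, 5 KO mice with PBS and 5 KO mice with LPS. The KO line carries the gene-trap allele Gt(XE726)Byg of Park7 in all cells and had been crossed back to C57BL/6NCrl mice, and KO and wildtype mice came from heterozygous parents. The olfactory bulb and the cerebellum had been removed, and CD11b+ cells, which are microglia and other myeloid cells, were enriched with magnetic beads (MACS). Each library came from 1 mouse.

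The start regions of 4 genes are shown, because the cyclooxygenases and the terminal synthases each split into a higher and a lower gene after LPS. Ptgs1 and Hpgds were lower after LPS, and Ptgs2 and Ptges were higher. Each sequence is the 250 bases before and the 50 bases after the transcript start in the RefSeq table of GRCm38.p6, printed 5′ to 3′ on the strand of the gene, and its place on GRCm39 was found by an exact match. Capitals mark the motif matches on the printed strand.
Ptgs2, chr1:149975532-149975831, plus strand: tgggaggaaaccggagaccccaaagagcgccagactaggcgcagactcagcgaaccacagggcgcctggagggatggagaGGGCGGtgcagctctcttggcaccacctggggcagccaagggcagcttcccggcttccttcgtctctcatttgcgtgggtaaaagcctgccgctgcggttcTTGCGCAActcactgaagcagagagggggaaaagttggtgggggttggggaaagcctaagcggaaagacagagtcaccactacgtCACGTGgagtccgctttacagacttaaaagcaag
Ptges, chr2:30793260-30793559, minus strand: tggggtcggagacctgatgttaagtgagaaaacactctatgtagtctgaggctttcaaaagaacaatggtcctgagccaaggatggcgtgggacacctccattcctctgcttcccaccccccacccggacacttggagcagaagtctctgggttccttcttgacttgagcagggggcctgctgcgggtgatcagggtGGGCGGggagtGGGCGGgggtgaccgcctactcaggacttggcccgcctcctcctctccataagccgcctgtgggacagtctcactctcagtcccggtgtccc
Ptgs1, chr2:36120188-36120487, plus strand: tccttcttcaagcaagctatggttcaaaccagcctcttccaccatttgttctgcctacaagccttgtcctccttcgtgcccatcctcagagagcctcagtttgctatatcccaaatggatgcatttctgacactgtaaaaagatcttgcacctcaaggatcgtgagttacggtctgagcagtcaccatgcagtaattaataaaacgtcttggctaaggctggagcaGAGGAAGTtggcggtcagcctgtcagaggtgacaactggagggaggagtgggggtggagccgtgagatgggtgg
Hpgds, chr6:65121665-65121964, minus strand: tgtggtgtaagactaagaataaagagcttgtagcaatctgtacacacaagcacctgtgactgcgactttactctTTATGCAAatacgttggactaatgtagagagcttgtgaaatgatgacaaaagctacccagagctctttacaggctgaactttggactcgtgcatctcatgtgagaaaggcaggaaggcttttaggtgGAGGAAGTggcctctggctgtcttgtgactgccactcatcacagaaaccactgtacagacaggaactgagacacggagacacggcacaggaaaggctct

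The motifs searched on both strands were the TATA box TATAAA, the cyclic AMP response element TGACGTCA, the AP-1 element TGANTCA, the C/EBP element TTNNGCAA, the E-box CACGTG, the GC box GGGCGG, the PU.1 element GAGGAAGT, the ISRE core GAAANNGAAA, the GAS element TTCNNNGAA and the NF-kappaB consensus. No match of one motif overlapped a match of another in these windows. The windows of Ptgs1 and Hpgds, the lower pair, both held the PU.1 element, with its first base at -24 and at -49 from the start. PU.1 is a factor of the myeloid lineage, and 3.2% of all 32851 promoters in the table held this element. The windows of Ptgs2 and Ptges, the higher pair, held the GC box, at -170 in Ptgs2 and at -53 and -42 in Ptges, as did 35.7% of all promoters. A C/EBP element stood at -69 in Ptgs2 and at -176 in Hpgds, against 10.8% of all promoters, and an E-box at 17 in Ptgs2, against 7.15%. Of the 5 other members found in the table, Alox5 and Ltc4s were lower after LPS in wildtype mice. Alox5 held 1 GC box and Ltc4s none of the motifs, so neither held the PU.1 element. Of the higher members, Ptger4 held 4 GC boxes, Ptger2 held a C/EBP element and Pla2g4a held none of the motifs. The 4 genes printed were picked by their LPS direction, so their motifs are no test of a link to it. The TATA box, the cyclic AMP response element, the AP-1 element, the NF-kappaB consensus, the ISRE core and the GAS element matched in none of the 9 windows, against 13.6%, 1.79%, 7.81%, 8.46%, 3.44% and 8.3% of all promoters. A match is a description of letters. The absence of one applies only to these windows and to the exact letters searched. Shorter or variant forms of a motif were not looked for. The RefSeq start lay 294 bases from the canonical Ensembl start in Ptgs2 and 269 bases from it in Hpgds, so other windows could be drawn. The Ptgs2 window had 59.3% G and C with 16 CpG dinucleotides, the Hpgds window 46.7% with 5, and the median promoter 52.7% with 7.

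Total counts per library ranged from 11936364 to 22788884, so that 3 counts correspond to 0.139 to 0.256 CPM, the counts scaled for library size. Park7 itself had 262 to 533 counts in each wildtype library and 9 to 90 in each KO library, and was lower in KO mice both at PBS (log2FC -3.74, adjusted p = 0.000389) and after LPS (log2FC -2.88, adjusted p = 0.00679). The microglial label was checked on 10 markers, of which 9 were in the table, and all 9 had counts in every library. Their summed level was 25267 to 40571 CPM at PBS and 10565 to 17005 CPM after LPS, and all 9 were lower after LPS in both genotypes. The 6 monocyte markers, which include Ly6c2, summed to 29.0 to 64.7 CPM at PBS and 179 to 477 CPM after LPS, and all 6 were higher in both genotypes. The 9 neutrophil markers summed to 26.8 to 243 CPM at PBS and 109 to 489 CPM after LPS, with 4 higher in wildtype and 5 higher in KO mice. Of the 7 markers of border-associated macrophages 4 were lower in both genotypes, and of the 6 endothelial markers 3 were lower in both. In both genotypes 1 of 5 astrocyte markers, 1 of 4 neuron markers and 1 of the 3 T and NK cell markers tested were higher after LPS, and 1 of these 3 passed as lower in KO against wildtype with LPS. The 5 platelet markers, of cells rich in cyclooxygenase-1, summed to 13.5 to 26.1 CPM at PBS and 6.99 to 10.7 CPM after LPS, without overlap, alongside the lower Ptgs1, and of the 2 that were tested 1 was higher and 1 lower in both genotypes. The 5 oligodendrocyte markers summed to 515 to 11235 CPM and passed the threshold in no comparison, but 1 library of each group stood above the rest, at 9675 CPM in the second wildtype mouse with PBS, 6692 CPM in the second wildtype mouse with LPS, 7361 CPM in the first KO mouse with PBS and 11235 CPM in the first KO mouse with LPS. The other libraries reached at most 3915 CPM, and leaving out each of these 4 mice in turn changed no call of a member. The shifts of the marker sums ran alongside every LPS comparison below, and their part in the results was not tested. In bulk libraries, fewer cells of a type and less RNA per cell cannot be told apart.

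LPS against PBS asked how the pathway answered acute inflammation in each genotype. In wildtype mice, 5 members were higher after LPS (Pla2g4a, Ptgs2, Ptges, Ptger2 and Ptger4) and 5 were lower (Ptgs1, Hpgds, Alox5, Alox5ap and Ltc4s), at an adjusted p under 0.05 and a log2FC of at least 0.5 in size. Over all genes tested, 18.4% were higher and 17.4% lower by this rule. In KO mice the same 5 were higher and 4 of the same 5 were lower, Alox5 being the exception, against 20.1% and 19% of all genes. The groups did not overlap for 4 of the higher and 4 of the lower members in wildtype mice, where 20.8% and 17% of all genes were without overlap in those directions. In KO mice the groups likewise did not overlap for 4 higher and 4 lower members, against 16.2% and 16.6% of all genes. The median size of the log2FC, whatever its sign, was 1.81 over the members in wildtype and 1.74 in KO mice, against 0.54 and 0.56 over all genes. The signed median of the members was -0.09 in wildtype and 0.23 in KO mice, against -0.06 and -0.01 over all genes. These counts and medians include Ptger2, which passed the filter on low counts through its LPS libraries alone. Without it 4 members were higher in each genotype, the median size was 1.67 in wildtype and 1.55 in KO mice, and the signed median was -0.82 and -0.58.

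**Figure D1:**
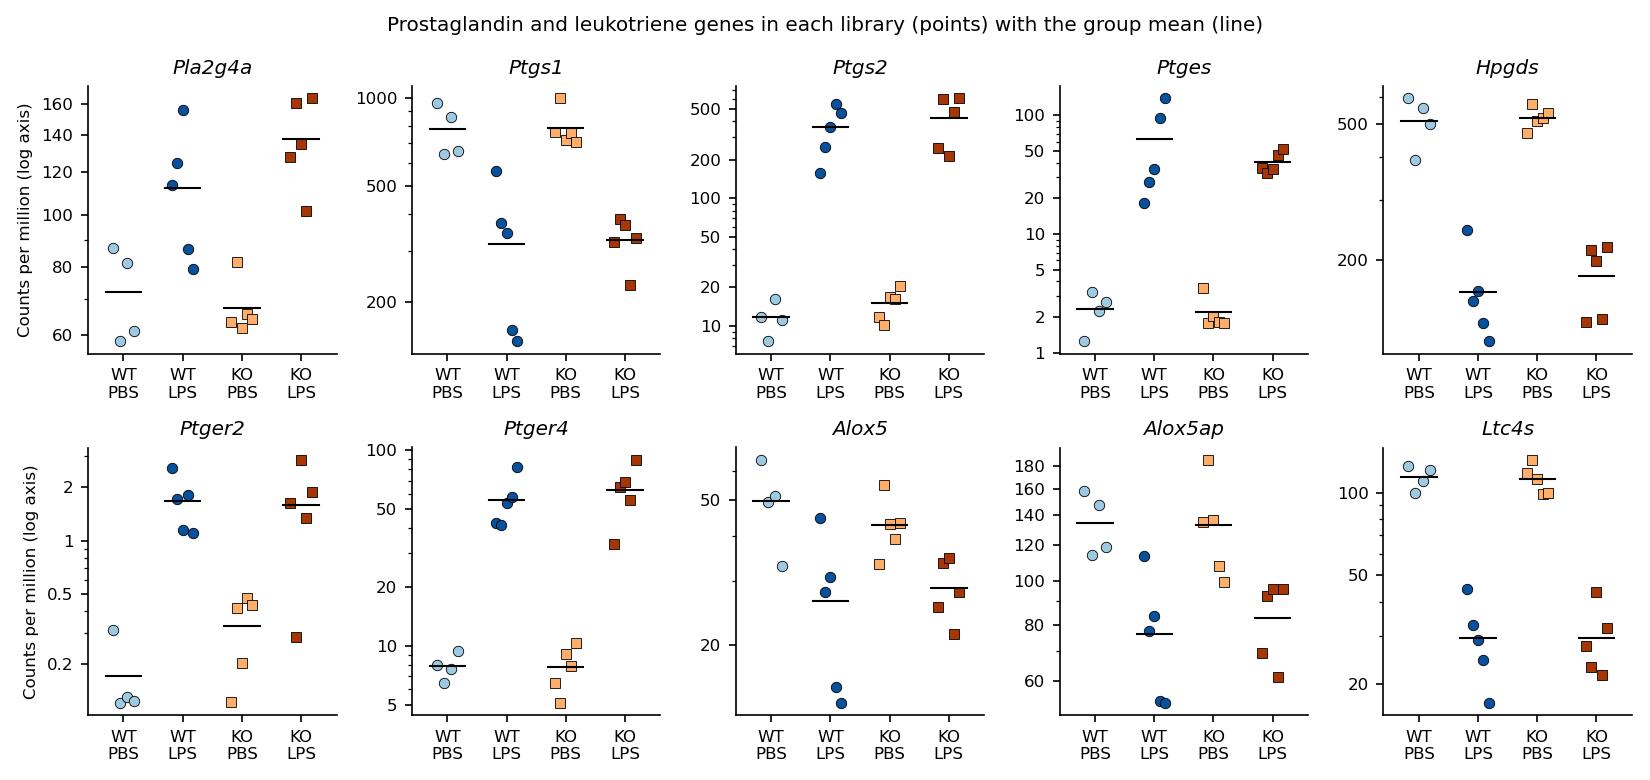
Each point is 1 library and each line a group mean, with CPM on a log axis for each of the 10 genes in the 4 groups (WT, wildtype). Ptgs2, Ptges and Ptger4 after LPS sit above every PBS library, and Ptgs1, Hpgds and Ltc4s after LPS sit below every PBS library of the same genotype.

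The enzyme that frees arachidonic acid is cytosolic phospholipase A2 (Pla2g4a, ENSMUSG00000056220, GRCm39 chr1:149705369-149837053). Pla2g4a was higher after LPS by less than Ptgs2 and Ptges, the downstream enzymes among the members that were also higher. In the replicate order of the labels, which is used throughout and has no meaning of its own, wildtype mice had 87.0, 58.5, 81.5 and 61.0 CPM with PBS and 113, 125, 156, 86.7 and 79.5 CPM with LPS. KO mice had 63.5, 81.8, 61.8, 65.7 and 64.4 CPM with PBS and 128, 160.3, 135, 102 and 164 CPM with LPS. The wildtype groups overlapped, because the last 2 LPS mice fell within the PBS range, and the KO groups did not. The log2FC was 0.64 (SE 0.19, adjusted p = 0.00984) in wildtype and 1.03 (SE 0.18, adjusted p = 8.56e-05) in KO mice. The wildtype call was lost when only the wildtype libraries were fitted (log2FC 0.59, adjusted p = 0.0589).

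The cyclooxygenases moved in opposite directions. Ptgs2 (ENSMUSG00000032487, chr1:149975194-149983978), the inducible cyclooxygenase-2 and the neighbour of Pla2g4a at a distance of 138140 bases, was at 11.8, 7.58, 16.3 and 11.2 CPM in wildtype mice with PBS and at 157, 253, 363, 550.2 and 465 CPM with LPS. In KO mice its level was 11.8, 10.2, 16.7, 16.1 and 20.5 CPM with PBS and 245, 598, 216, 472 and 607 CPM with LPS. Every LPS library was above every PBS library by a wide margin, and the LPS libraries of each genotype spread over about the same range. The fold was 30.6 (95% CI 16.2 to 57.5) in wildtype and 28.3 (16.1 to 50.1) in KO mice, with log2FCs of 4.93 (SE 0.44, adjusted p = 5.01e-08) and 4.83 (SE 0.39, adjusted p = 1.19e-08). Among all genes tested, 0.63% in wildtype and 0.646% in KO mice had a larger log2FC in size than Ptgs2.

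Ptgs1 (ENSMUSG00000047250, chr2:36120438-36142287), the constitutive cyclooxygenase-1, fell. Wildtype mice had 962, 644, 858 and 659 CPM with PBS and 560.3, 373, 344, 160.5 and 147 CPM with LPS. KO mice had 763, 995, 717, 759 and 707 CPM with PBS and 321, 385, 368, 229.5 and 331 CPM with LPS. No LPS library reached the PBS range of its genotype, and the 5 wildtype LPS mice spread more widely than the 5 KO LPS mice, with a coefficient of variation of 53.8% against 18.5%. The log2FC was -1.30 (SE 0.29, adjusted p = 0.00139) in wildtype and -1.27 (SE 0.28, adjusted p = 0.00101) in KO mice, that is 0.406 and 0.415 of the PBS level. The microglial marker sum fell in the same comparison, as given above.

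The terminal synthases split in the same way. Ptges (ENSMUSG00000050737, chr2:30779483-30820196), the inducible microsomal prostaglandin E synthase-1, which acts after cyclooxygenase-2, had 1.25, 3.27, 2.23 and 2.67 CPM in wildtype mice with PBS and 18.3, 27.2, 35.0, 94.9 and 139 CPM with LPS. In KO mice it had 3.50, 1.80, 2.03, 1.83 and 1.78 CPM with PBS and 35.7, 32.7, 35.2, 46.2 and 51.8 CPM with LPS. The KO LPS libraries lay close together, while the wildtype LPS libraries spanned a 7.61-fold range that enclosed them. The fold was 26.7 (95% CI 12.1 to 59.1) in wildtype and 18.5 (9.12 to 37.4) in KO mice, with log2FCs of 4.74 (SE 0.55, adjusted p = 1.19e-06) and 4.21 (SE 0.49, adjusted p = 9.06e-07). The wildtype log2FC was 3.61 among the mice with animal numbers up to 568 in the labels and 5.50 among those from 579 on, where 2 LPS mice were set against 1 PBS mouse, which was assumed to vary like the other groups.

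Hpgds (ENSMUSG00000029919, chr6:65094001-65121983), which makes prostaglandin D2 in blood-derived and resident myeloid cells, fell. Its level was 596, 393, 556 and 501 CPM in wildtype mice with PBS and 244, 151, 161, 131 and 115 CPM with LPS. In KO mice it was 472, 572, 509, 519 and 539 CPM with PBS and 131, 213, 198, 134 and 217 CPM with LPS. The groups were far apart in both genotypes, and the log2FC was -1.67 (SE 0.20, adjusted p = 1.83e-06) in wildtype and -1.55 (SE 0.19, adjusted p = 2.15e-06) in KO mice.

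The 2 prostaglandin E2 receptors among the members, EP4 and EP2, were higher after LPS, from low levels. Ptger4 (ENSMUSG00000039942, chr15:5236142-5273673), the EP4 receptor, had 7.98, 6.49, 7.62 and 9.44 CPM in wildtype mice with PBS and 42.5, 41.4, 53.9, 57.7 and 82.4 CPM with LPS. KO mice had 6.51, 5.13, 9.09, 7.91 and 10.3 CPM with PBS and 33.3, 64.6, 68.9, 55.8 and 89.5 CPM with LPS. The groups were without overlap in both genotypes, with folds of 7.04 (95% CI 4.69 to 10.6, log2FC 2.82, SE 0.28, adjusted p = 2.01e-07) in wildtype and 8.0 (5.51 to 11.6, log2FC 3.00, SE 0.26, adjusted p = 2.40e-08) in KO mice. Ptger2 (ENSMUSG00000037759, chr14:45225652-45241277), the EP2 receptor, was the rarest member, with 2 to 9 counts in each PBS library and 5 to 48 in each LPS library. Wildtype mice had 0.313, 0.121, 0.131 and 0.124 CPM with PBS and 2.56, 1.71, 1.14, 1.82 and 1.11 CPM with LPS. KO mice had 0.123, 0.416, 0.203, 0.471 and 0.432 CPM with PBS and 1.63, 0.286, 2.87, 1.34 and 1.88 CPM with LPS, where the second LPS mouse lay within the PBS range. Several PBS libraries had only 2 counts of it, under the level of 3 counts given above, which covers counting error only. The fold was 9.16 (95% CI 3.94 to 21.3, adjusted p = 0.000184) in wildtype and 4.73 (2.33 to 9.59, adjusted p = 0.000844) in KO mice. All PBS libraries lay under the minimum of 10 counts, so that Ptger2 was tested because of its LPS libraries, a choice that favours a higher level there. With no filter on low counts the log2FC of Ptger2 was 3.15 (adjusted p = 0.000263) in wildtype and 2.22 (adjusted p = 0.00140) in KO mice.

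All 3 members of the leukotriene branch were lower after LPS or below the threshold. Alox5 (ENSMUSG00000025701, chr6:116387032-116438139), the 5-lipoxygenase that begins leukotriene synthesis, had 64.6, 49.6, 51.5 and 33.1 CPM in wildtype mice with PBS and 44.6, 28.0, 30.8, 15.3 and 13.9 CPM with LPS. KO mice had 33.5, 54.9, 43.1, 39 and 43.2 CPM with PBS and 25.4, 33.5, 34.8, 21.5 and 28.1 CPM with LPS. The groups overlapped in both genotypes. The log2FC was -0.90 (SE 0.28, adjusted p = 0.0125) in wildtype mice, a call that was lost without the first wildtype PBS mouse (adjusted p = 0.0516). In KO mice it was -0.58 (SE 0.26, 95% CI -1.13 to -0.03, adjusted p = 0.0806), which did not pass, and it passed in the fit of the KO libraries alone (log2FC -0.56, adjusted p = 0.0181). The difference of the Alox5 response between genotypes was 0.33 on the log2 scale (95% CI -0.47 to 1.12).

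Alox5ap (ENSMUSG00000060063, chr5:149196003-149227762), the membrane protein that presents arachidonic acid to 5-lipoxygenase, had 158, 114, 147 and 119 CPM in wildtype mice with PBS and 113, 77.2, 83.5, 54.0 and 53.6 CPM with LPS. KO mice had 135, 186, 137, 107.6 and 99.3 CPM with PBS and 69.1, 92.4, 96.0, 61.1 and 95.7 CPM with LPS. The groups were adjacent without overlap in both genotypes. The log2FC was -0.82 (SE 0.22, adjusted p = 0.00532) in wildtype and -0.68 (SE 0.21, adjusted p = 0.0116) in KO mice. Ltc4s (ENSMUSG00000020377, chr11:50127288-50129443), which joins glutathione to leukotriene A4, fell most among the 10 genes. It had 125, 99.8, 110.5 and 121 CPM in wildtype mice with PBS and 44.7, 32.9, 28.8, 24.4 and 17.1 CPM with LPS. KO mice had 118, 132, 113, 99.4 and 99.9 CPM with PBS and 27.6, 23, 43.2, 21.6 and 32.0 CPM with LPS. No LPS library came near the PBS range, and the log2FC was -1.95 (SE 0.22, adjusted p = 1.09e-06) in wildtype and -1.93 (SE 0.21, adjusted p = 5.85e-07) in KO mice. Mast cells are another known source of Ltc4s and Hpgds. Of the 7 mast cell markers only Kit passed the filter on low counts, and the sum of all 7 was 1.04 to 6.06 CPM at PBS and 1.15 to 9.73 CPM after LPS over both genotypes.

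**Figure D2:**
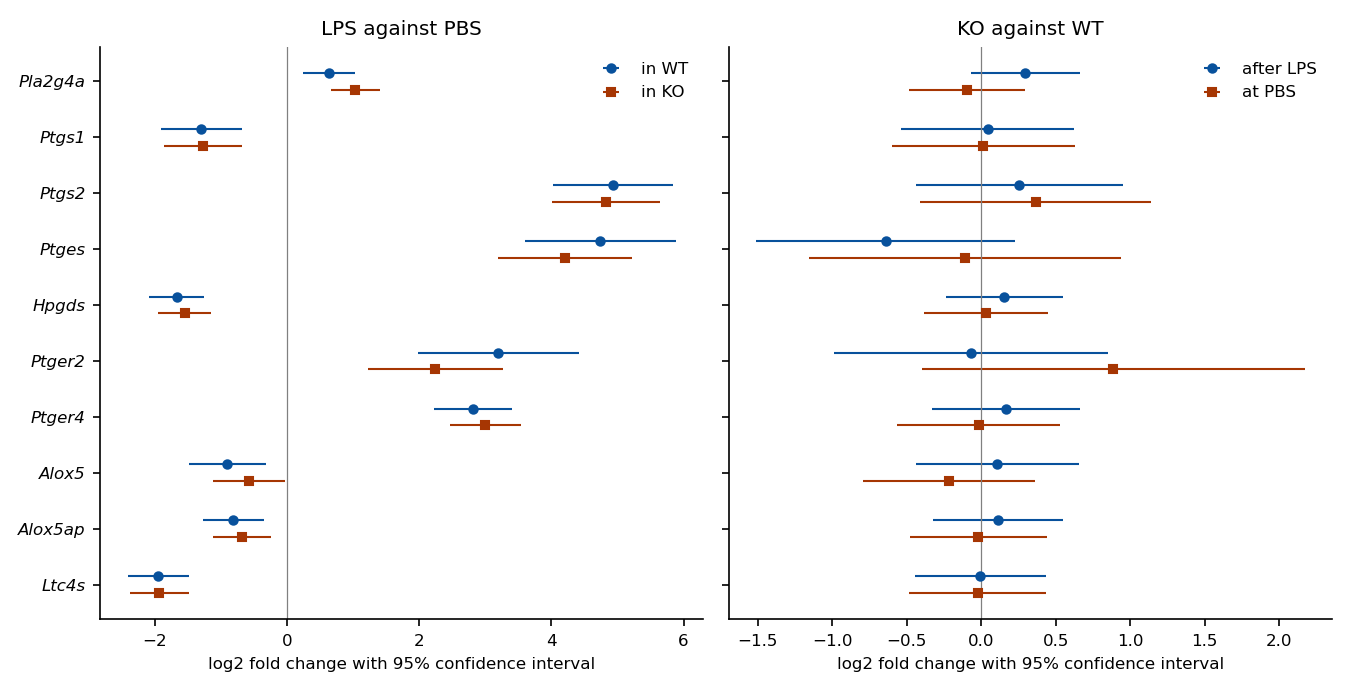
Points are log2 fold changes from the edgeR fit and bars their 95% confidence intervals, for LPS against PBS on the left and KO against wildtype (WT) on the right. On the left, 5 genes lie above 0 and 5 below in both genotypes, and on the right every interval includes 0.

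Levels of different genes were compared per kilobase of exon. In wildtype mice with PBS the order ran from Ptgs1 (201 ± 39.9 CPM per kilobase, SD, n = 4) to Ltc4s (110.2 ± 11.1), Hpgds (64.6 ± 11.1), Alox5ap (34.8 ± 5.58), Alox5 (12.1 ± 3.14), Pla2g4a (9.59 ± 1.91), Ptgs2 (2.29 ± 0.698), Ptger4 (1.18 ± 0.183), Ptges (0.535 ± 0.193) and Ptger2 (0.0332 ± 0.018). Alox5 and Pla2g4a were the neighbours in this order whose SDs overlapped. After LPS in wildtype mice Ptgs1 (81.6 ± 43.9, n = 5) and Ptgs2 (69.8 ± 30.8) led the order with overlapping SDs. Ltc4s (28.5 ± 9.92), Hpgds (20.2 ± 6.31) and Alox5ap (19.8 ± 6.40) followed, then Pla2g4a (14.9 ± 4.09), Ptges (14.3 ± 11.9), Ptger4 (8.35 ± 2.49), Alox5 (6.45 ± 3.05) and Ptger2 (0.321 ± 0.115). From Ltc4s down to Alox5 the SDs of all neighbours in this order overlapped. In KO mice after LPS the leading pair stood at 84.1 ± 15.5 for Ptgs1 and 83.4 ± 36.7 CPM per kilobase for Ptgs2 (n = 5). The mean of Ptges was above that of Alox5 after LPS in both genotypes, with overlapping SDs, from a level far below it at PBS.

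The balance within each pair was set out as a ratio per library. The Ptgs2 to Ptgs1 ratio per kilobase was 0.0114 ± 0.0027 (SD, n = 4) in wildtype mice with PBS and 0.0151 ± 0.0055 (n = 5) in KO mice with PBS. After LPS it was 0.213, 0.515, 0.801, 2.60 and 2.40 in the wildtype mice and 0.580, 1.18, 0.445, 1.56 and 1.39 in the KO mice. The inducible gene thus made up 1.12% of the summed cyclooxygenase level in wildtype mice at PBS and 17.5% to 72.2% in single wildtype mice after LPS, and 1.48% and 30.8% to 60.9% in KO mice. The ratio was 79.6-fold higher after LPS in wildtype and 64.9-fold higher in KO mice. That the groups did not overlap follows from the separate levels of both genes, so no test is given for it. KO and wildtype ratios after LPS overlapped (log2 difference 0.05, exact two-sided permutation test, p = 0.960, adjusted over 8 comparisons 0.960), and so did those at PBS (0.35, exact permutation p = 0.333, adjusted 0.533).

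The Ptges to Hpgds ratio was 0.00889 ± 0.0047 (SD, n = 4) in wildtype mice with PBS and 0.00769 ± 0.0032 (n = 5) in KO mice with PBS. After LPS it was 0.135, 0.324, 0.391, 1.31 and 2.18 in the wildtype mice and 0.491, 0.276, 0.320, 0.619 and 0.429 in the KO mice. Per kilobase of all exons, Ptges exceeded Hpgds in 2 wildtype mice and in 0 of the 5 KO mice after LPS. With the longest transcript as the length these 2 wildtype mice had ratios of 0.700 and 1.17, so that 1 exceeded it. The ratio was 69.1-fold higher after LPS in wildtype and 56.3-fold higher in KO mice, given without a test for the same reason. Between genotypes the log2 difference was -0.42 after LPS (exact permutation p = 0.595, adjusted 0.794) and -0.12 at PBS (exact permutation p = 0.778, adjusted 0.889). With that length the mean ratio after LPS was 0.465 in wildtype and 0.229 in KO mice.

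**Figure D3:**
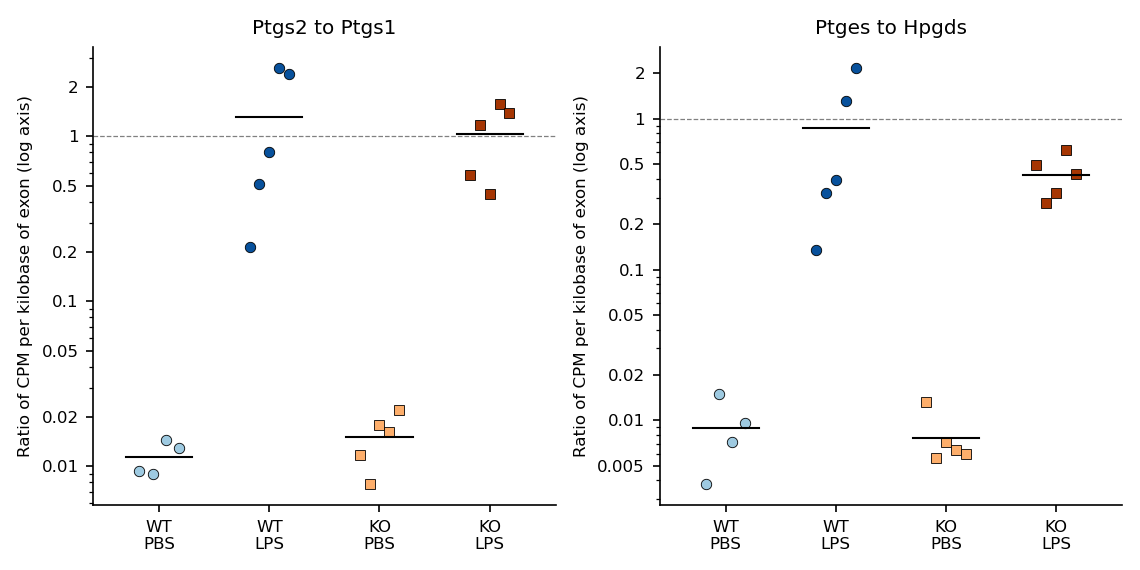
The left panel plots the Ptgs2 to Ptgs1 ratio and the right panel the Ptges to Hpgds ratio, each as CPM per kilobase of exon on a log axis, with a point per library, a line at the group mean and a dashed line at a ratio of 1. All LPS libraries lie above all PBS libraries, and the wildtype (WT) LPS points cover the wider range.

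KO against wildtype asked whether the absence of DJ-1 moved these genes, after LPS and at PBS. After LPS, 0 members were higher and 0 lower at an unadjusted p under 0.05 and a log2FC of at least 0.5 in size, where 0.544% of all genes were higher and 0.763% lower. No member was without overlap between the groups, against 0.0587% of all genes higher and 0.16% lower. At PBS the counts were again 0 and 0, against 0.224% and 0.576% of all genes, and 0 members were without overlap, against 0.427% and 0.544%. With edgeR, 0 members had an unadjusted p under 0.05 in either comparison, and with DESeq2 the counts past the thresholds were also 0. Missing the threshold does not show that the genotypes had the same levels, and the intervals give the room left.

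After LPS the smallest p among the members belonged to Pla2g4a (log2FC 0.30, 95% CI -0.07 to 0.66, adjusted p = 1.00 in edgeR). The widest estimate was that of Ptges, at -0.64 (95% CI -1.51 to 0.23), with 63.0 ± 52.2 CPM in wildtype and 40.3 ± 8.21 CPM in KO mice (SD, n = 5 each). Ptgs2 stood at 0.26 (95% CI -0.44 to 0.95), which covers a lower level in KO mice as well as a 1.93-fold higher one, and Ptgs1 at 0.04 (95% CI -0.54 to 0.63). The log2FCs of Hpgds, Ptger4, Alox5, Alox5ap, Ltc4s and Ptger2 lay between -0.07 and 0.17. At PBS the largest estimates were those of Ptger2 (0.89, 95% CI -0.40 to 2.17) and Ptgs2 (0.37, 95% CI -0.41 to 1.14). For the other 8 genes the PBS estimates lay between -0.22 and 0.03. The median size of the log2FC was 0.14 over the members and 0.14 over all genes after LPS, and 0.06 and 0.11 at PBS.

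The interaction asked whether the answer to LPS was another one in KO mice. It was past an adjusted p of 0.05 for 0 members and for 0% of all genes, and past an unadjusted p of 0.05 for 0 members and 0.961% of all genes. The estimates were -0.95 for Ptger2 (95% CI -2.53 to 0.62), -0.53 for Ptges (95% CI -1.90 to 0.83) and 0.39 for Pla2g4a (95% CI -0.14 to 0.92, adjusted p = 1.00 in edgeR, the smallest p of the members). For Ptgs2 the interval ran from -1.14 to 0.93 around -0.11, so a response 1.90-fold larger in KO mice lay within it.

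Mice within a group were not alike. In the wildtype LPS group the SD of log2 CPM was 1.24 for Ptges, 0.83 for Ptgs1, 0.72 for Ptgs2 and 0.71 for Alox5, against a median of 0.34 over all genes tested. In the KO LPS group it was 0.28 for Ptges, 0.29 for Ptgs1, 0.71 for Ptgs2 and 0.29 for Alox5, against a median of 0.44, and 1.09 for Ptger2. Over the pairs of members, Pearson's r of the deviations from the group means across the 19 libraries ran from -0.897 to 0.927. It was 0.927 for Ptgs1 with Alox5, 0.870 for Ptgs1 with Alox5ap and -0.897 for Ptgs1 with Ptges, so that mice with more Ptgs1 than their group had more Alox5 and less Ptges. Other pairs lay near 0, such as Pla2g4a with Ptgs2 (-0.0596), Pla2g4a with Ptger2 (0.0193) and Ptger2 with Ptger4 (-0.0870). In the 10 LPS libraries the values of the 3 pairs with Ptgs1 were 0.984, 0.926 and -0.954, and in the 9 PBS libraries 0.728, 0.840 and -0.617. The genes of a library share its depth and its cell content, and the values describe these libraries.

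The wildtype LPS mice with low Ptgs1 and high Ptges were the pair with the higher animal numbers in the labels. In each group the first 3 mice carried numbers up to 568 and the remaining ones numbers from 579 on, and what the numbers stand for is not given. Within the wildtype LPS group the mice from 579 on had 4.36 times the Ptges level of the others, 1.97 times the Ptgs2 level and 1.52 times the Ptger4 level. They had 0.361 times the Ptgs1 level, 0.424 times the Alox5 level and 0.633 times the Pla2g4a level. In the KO LPS group the same ratios were 1.42 for Ptges, 1.53 for Ptgs2, 1.31 for Ptger4, 0.784 for Ptgs1, 0.793 for Alox5 and 0.942 for Pla2g4a. The microglial marker sum was 17005, 13854 and 15297 CPM in the wildtype LPS mice up to 568 and 10565 and 10984 CPM in those from 579 on, and the monocyte sum 379, 279 and 349 CPM against 477 and 477 CPM. Their part in the difference was not tested.

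Within each range of animal numbers the LPS response kept its direction for all 10 members in both genotypes. For Ptgs1 in wildtype mice the log2FC was -0.92 up to 568 and -2.05 from 579 on, and for Ptgs2 it was 4.47 and 5.55, the second value of each again from 2 LPS mice against 1 PBS mouse. KO against wildtype after LPS kept its direction between the ranges for Pla2g4a and Ptgs2, was 0.28 and 0.00058 for Ptger4, and changed it for Ptges, Ptgs1, Alox5, Hpgds, Alox5ap, Ltc4s and Ptger2. For Ptges the log2FC was 0.36 up to 568 (3 against 3 mice) and -1.30 from 579 on (2 against 2 mice). For Ptgs1 it was -0.25 and 0.82, for Alox5 -0.14 and 0.71, and for Pla2g4a 0.10 and 0.62. For Hpgds it was -0.03 and 0.46, for Alox5ap -0.09 and 0.49, for Ltc4s -0.18 and 0.32, and for Ptger2 -0.17 and 0.07. The ranges were set after the wildtype LPS mice from 579 on were seen to stand apart in Ptgs1, Ptges and Alox5, so the values within them describe these mice and are no test of the genotype.

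**Figure D4:**
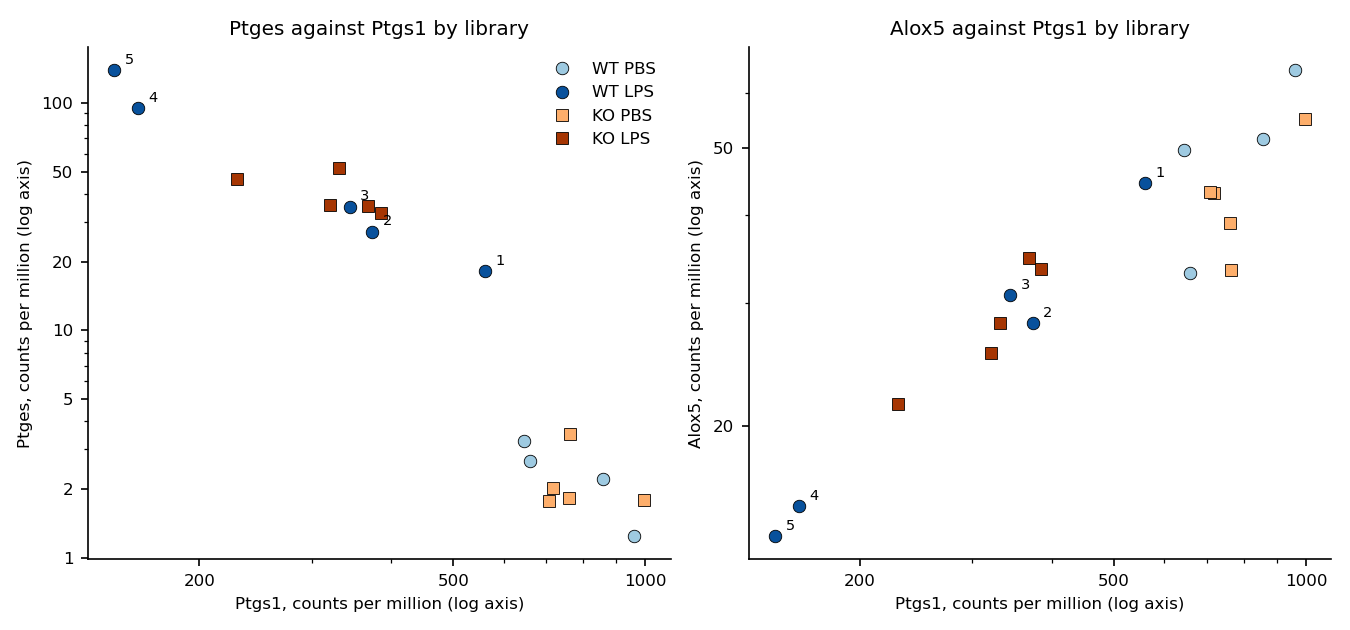
Each point is 1 library, with Ptgs1 in CPM on a log x axis against Ptges (left) and Alox5 (right) in CPM on log y axes, and numbers mark the replicates of the wildtype (WT) LPS group. Wildtype LPS mice 4 and 5 combine the lowest Ptgs1 and Alox5 with the highest Ptges of all 19 libraries.

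The genes whose log2 CPM ran closest to a member over the 19 libraries were looked up among the protein-coding genes. This likeness includes the step between PBS and LPS, so the deviations from the group means are given beside it. For Ptgs2 the closest gene was Il1b, the cytokine interleukin-1 beta, by levels (Pearson's r 0.993) and by deviations (0.876). For Ptger4 the closest by levels was Cxcl2, a neutrophil chemokine (0.993), and by deviations Zc3h12a, an RNase that degrades inflammatory mRNAs (0.914). For Ptges it was Sdc4 by levels (0.987) and Ankrd33b by deviations (0.927), with Sod2, the mitochondrial superoxide dismutase, among the closest 3 by both (0.987 and 0.908). Among the genes that fell, Ptgs1 was closest to Bin2 (0.990 and 0.980), Hpgds to Plcl2 (0.996 and 0.965) and Ltc4s to Fcrl1 (0.993 and 0.940). Tbxas1, thromboxane synthase, was among the 3 genes closest to Hpgds by levels (0.989), and Ptgs1 itself was among the 3 closest to Alox5 by levels (0.934) and deviations (0.927). Alox5ap was closest to Wipf1 by levels (0.974) and Adam10 by deviations (0.965), Pla2g4a to Xpot (0.947) and Heatr1 (0.946), and Ptger2 to Spryd3 (0.908) and Smim14 (0.809).

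The wider pathway was read from 7 lists with 69 genes, of which 62 were tested. After LPS 13 were higher and 25 lower in wildtype mice, or 21.0% and 40.3% of those tested, beside 18.4% and 17.4% of all genes. KO mice had 12 higher and 25 lower, or 19.4% and 40.3%, beside 20.1% and 19% of all genes. The higher shares were near those of all genes, and the counts include the 10 members. Beyond the members, the other prostaglandin E synthases were also higher, Ptges2 with a log2FC of 1.24 in wildtype and 1.01 in KO mice and Ptges3 with 0.99 and 1.12. Of the 12 prostanoid synthesis genes 4 were higher in both genotypes, and 6 were lower in wildtype and 5 in KO mice. The lower ones included Tbxas1, which went from 229 ± 42.3 CPM (SD, n = 4) to 56.7 ± 19.1 CPM (n = 5) in wildtype mice (log2FC -2.02, and -1.75 in KO mice), Ptgis, the prostacyclin synthase (-1.52 and -1.64), and Cbr1, a carbonyl reductase (-0.96 and -1.27). The wildtype call of Ptgis was lost in 6 of the 9 fits that left out 1 mouse and in 3 of 10 other alternatives, with an adjusted p of up to 0.340 in edgeR.

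The transport and inactivation list had no higher member and 3 lower ones of 6 in wildtype and 4 in KO mice, the fourth being the transporter Slco2a1 (log2FC -1.51, adjusted p = 0.0468). That call was lost in 6 of the 10 fits that left out 1 mouse and in 4 of 10 other alternatives, with an adjusted p of up to 0.246. Hpgd, the dehydrogenase that inactivates prostaglandin E2, fell from 301 ± 93.1 CPM (SD, n = 4) to 19.5 ± 9.37 CPM (n = 5) in wildtype and from 315 ± 79.1 CPM to 20.3 ± 6.04 CPM (n = 5 each) in KO mice, with log2FCs of -3.95 and -3.96. Of the reductases that act after it, Ptgr2 (-1.12 and -1.20) and Zadh2, also named Ptgr3 (-0.82 and -0.87), fell by less. Ptgr1, the remaining reductase of this list, passed in neither genotype. Among the 7 prostanoid receptors tested, 3 were higher in both genotypes, and 2 were lower in wildtype and 3 in KO mice. Beside both members these were Ptgir, the prostacyclin receptor (log2FC 3.78 in wildtype and 2.69 in KO mice). Ptger3, the EP3 receptor, was lower (-1.98 and -1.79). The others that were lower, named here after their values were seen, were Ptgfr, the prostaglandin F receptor (-2.91 and -2.61, from a mean of 0.387 CPM over all libraries), and, in KO mice, Tbxa2r, the thromboxane receptor (-1.53, adjusted p = 0.0433). The LPS levels of Ptgfr lay below that mean, near the level of 3 counts (0.139 to 0.256 CPM). Ptgfr was thus tested because of its PBS libraries, a choice that favours a lower level after LPS, and the counts of lower receptors include it.

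Of the 15 genes of phospholipid release and reacylation 3 were higher and 6 lower in wildtype mice, and 2 and 5 in KO mice. Pla2g2d, a secreted phospholipase, fell furthest (log2FC -4.81 and -3.65), from 7.86 ± 2.16 to 0.266 ± 0.181 CPM in wildtype mice. That LPS mean is close to the level of 3 counts (0.139 to 0.256 CPM), so the size of the fall is uncertain. It also lies under the minimum of 10 counts, so in wildtype mice Pla2g2d was tested because of its PBS libraries. This choice favours a lower level after LPS. Mgll (-1.61 and -1.43) and Daglb (-1.16 and -1.07), which yield arachidonic acid by way of the endocannabinoid 2-arachidonoylglycerol, also fell, as did Pla2g15 (-1.27 and -1.14) and Lpcat3 (-0.90 and -0.85). Mboat7, which puts arachidonic acid back into phosphatidylinositol, was higher (0.56 and 0.55), close to the limit of 0.5. In each genotype the call of Mboat7 was lost in 1 fit that left out 1 mouse and in 3 of 11 other alternatives. Of the 11 leukotriene synthesis and inactivation genes tested 1 was higher in both genotypes, and 6 were lower in wildtype and 5 in KO mice. The higher one was Abcc1, an exporter of leukotriene C4 (0.69 and 0.77). Beside the members, Ggt5, which turns leukotriene C4 into D4 (-1.87 and -1.74), Cotl1, a binding partner of 5-lipoxygenase (-0.87 and -0.86), and Mgst3 (-1.37 and -0.85) fell. The KO call of Mgst3 was lost in 6 of the 10 fits that left out 1 mouse and in 5 of 11 other alternatives, with an adjusted p of up to 0.187.

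The leukotriene receptors split. Cysltr1, the cysteinyl leukotriene receptor, went from 92.6 ± 26.1 CPM (SD, n = 4) to 21.3 ± 12.4 CPM (n = 5) in wildtype mice (log2FC -2.12, and -2.26 in KO mice). Ltb4r1, the high-affinity leukotriene B4 receptor, went from 1.22 ± 0.51 to 12.6 ± 2.42 CPM (log2FC 3.36, and 2.86 in KO mice). Of the 5 leukotriene receptor genes tested these were the 2 called in wildtype mice, and 1 was higher and 2 were lower in KO mice. In the list of other lipoxygenases and mediators 1 of 6 was higher, the formyl peptide receptor Fpr2 (5.12 and 4.87), and 1 was lower, the 12-lipoxygenase Alox12 (-2.19 and -2.70), in both genotypes. Fpr2 and Ltb4r1 are also known from neutrophils and monocytes, whose marker sums are given above and whose part was not tested. Of the 62 genes, KO against wildtype passed the unadjusted threshold for Slco2a1, a prostaglandin transporter, after LPS (-1.34, adjusted p = 1.00 in edgeR), from 0 to 15 counts in the KO libraries, and for Ptgir at PBS (0.74, adjusted p = 1.00 in edgeR). Slco2a1 fell short of that threshold in 5 of the 10 fits that left out 1 mouse and in 4 of 10 other alternatives, and Ptgir in 5 of 9 and 7 of 10. The interaction for Ptgir was -1.09 (adjusted p = 1.00 in edgeR).

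**Figure D5:**
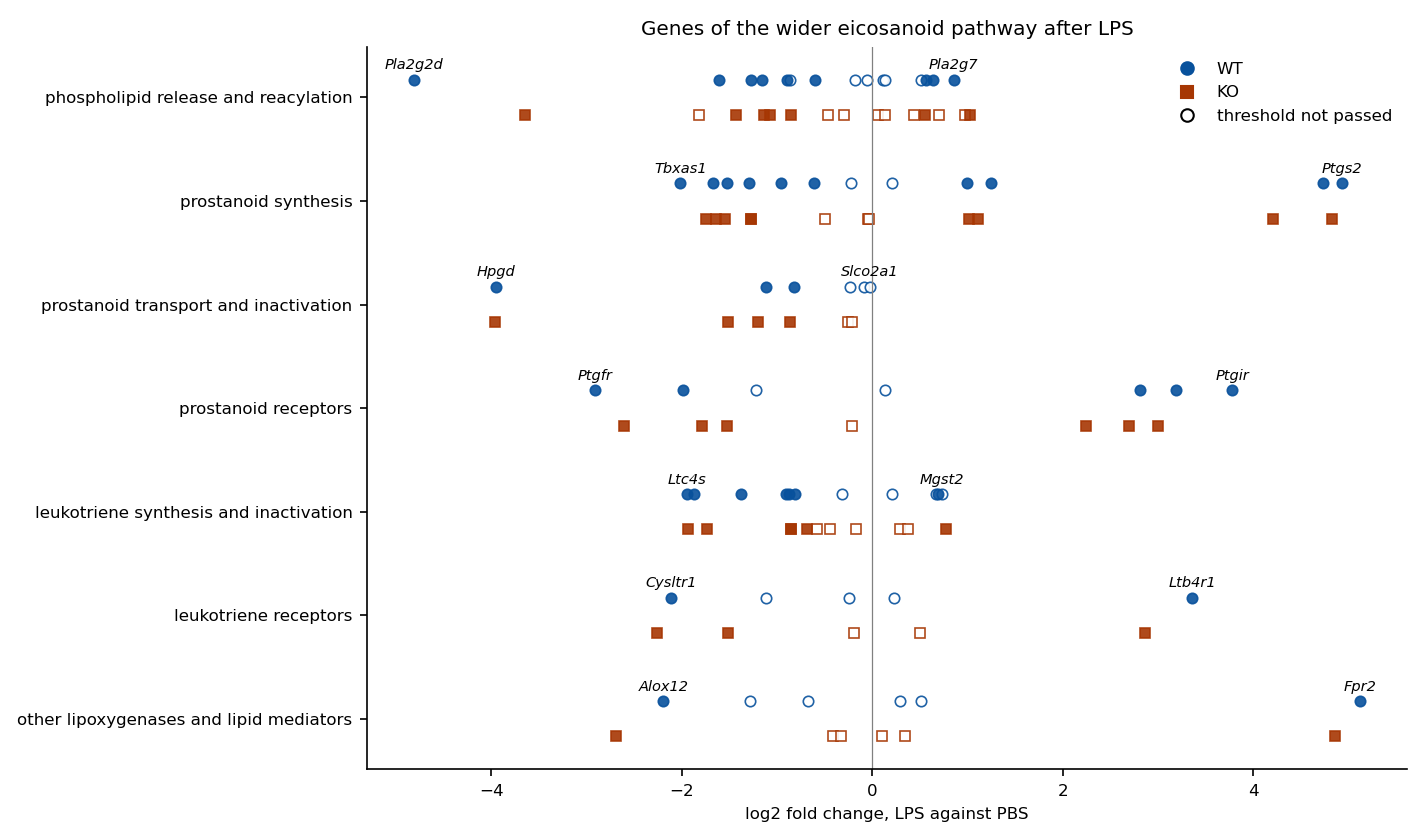
Each point is the log2 fold change of 1 gene after LPS in wildtype (WT, circles) or KO mice (squares), by list, and open points did not pass the threshold. The lists of prostanoid synthesis, of both kinds of receptor and of other mediators reach far to both sides of 0, and the transport and inactivation list has points that passed on the lower side alone.

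Some members share their place in the genome with a gene on the other strand, and the strand setting of the authors' counting is not stated in the sources used here. Ptgs2os overlaps the exons of Ptgs2 by 476 bases and had 0 to 34 counts per library, against 125 to 10455 for Ptgs2. It was also higher after LPS (log2FC 3.70 in wildtype and 2.79 in KO mice). Gm26542 overlaps Ltc4s by 268 bases, had 24 to 199 counts against 200 to 2866 for Ltc4s, and was lower (-1.65 and -1.61). Ttc33 overlaps Ptger4 by 229 bases and had 89 to 421 counts, with log2FCs of -0.50 and -0.80, opposite to Ptger4. The other overlapping genes in the table had at most 24 counts in any library.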

How the data were processed

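CD11b+ cells were isolated by MACS from the brains of 19 mice, and their RNA was sequenced as ribosome-depleted stranded libraries with paired reads of 75 bp. The authors removed adapters with cutadapt, then used STAR 2.7.9a (per the labels) for alignment and counting on GRCm39 with Ensembl release 108, and the strand setting of the counting is not stated. The deposited values are raw counts per Ensembl gene and mouse, not normalized by the authors. Total counts were 11936364 to 22788884 per library, and no 2 libraries of a group agreed within sampling noise in a chi-square test, so each was 1 replicate. P-values set the differences against the spread between these mice, estimated for each gene over all 4 groups together.

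The members, the pathway lists and the marker lists were chosen with earlier results of these data known. Gene names, exon lengths and coordinates came from GENCODE M39. The counts went into edgeR 4.0.16 under R 4.3.3: filterByExpr (minimum count 10, minimum total 15), TMM, and 1 quasi-likelihood fit of all 19 libraries in 4 groups. LPS against PBS used an adjusted p (Benjamini-Hochberg over 18739 genes) under 0.05 and a log2FC of at least 0.5 in size. KO against wildtype used an unadjusted p under 0.05 with the same log2FC, as in the study, and the interaction an adjusted p under 0.05. The SE is the log2FC divided by the square root of its F statistic, and intervals are 95%. CPM uses TMM library sizes, and log2 CPM a prior count of 2. Ratios used CPM per kilobase of all exons and exact two-sided permutation tests of log2 ratios, adjusted over 8 comparisons, of which the 4 between genotypes are given.

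Named genes were all 10 members, the pathway genes with a mean of at least 1 CPM that passed in both genotypes after LPS or passed KO against wildtype, Park7, genes overlapping a member on the other strand, and the 3 protein-coding genes most like each member, of which the closest are given. Promoter sequences are those of RefSeq on GRCm38.p6. The scripts were tested on simulated counts. Same-numbered mice are different animals. Their deviations from the group means correlated by 0.33 on average in wildtype (-0.04 to 0.58) and 0.25 in KO mice (0.03 to 0.54), not above 0.1 in every pair, so the numbers were not taken as pairs and no replicate block was used in the reported fit. Alternatives were DESeq2 1.42.0, its size factors in edgeR, other low-count filters, fits of the compared groups alone, the replicate block, a fit without mitochondrial and rRNA genes, the number of the animal as covariate, stricter thresholds, the longest transcript as length, each mouse left out, and, chosen after seeing the data, fits within ranges of animal numbers. Other data types of the study were not used here.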

Additional observations from a re-analysis of the deposited data

Results flagged for a closer look

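In 4 of the 40 combinations of a member and a group, 1 mouse stood apart from its group by Dixon's test at the 95% level, which flags about 1 in 20 groups by chance. Pla2g4a was at 81.8 CPM in the second KO mouse with PBS, and the nearest mouse of the group was at 65.7 CPM. The same mouse had 995 CPM of Ptgs1, and the nearest had 763 CPM. Ptges was at 3.50 CPM in the first KO mouse with PBS, and the nearest was at 2.03 CPM. Ptger2 was at 0.313 CPM in the first wildtype mouse with PBS, and the nearest was at 0.131 CPM, which are 6 and 2 counts. No combination in the LPS groups stood apart in this way.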

How the results depend on the processing

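Across all alternatives, including the fits that left out 1 mouse, no member changed the sign of its LPS response in either genotype. With a log2FC of at least 1, 4 members were higher and 3 lower in wildtype mice in place of 5 and 5, and 5 higher and 3 lower in KO mice in place of 5 and 4. Leaving out each mouse gave 5 higher and 4 to 5 lower members in wildtype and 5 higher and 4 lower in KO mice. KO against wildtype after LPS gave 0 higher and 0 to 1 lower, the 1 being Ptges (log2FC -0.88) without the first wildtype LPS mouse. Over these fits the log2FC of Ptges ran from -0.88 to -0.12. At PBS and in the interaction the counts of members were 0. Among animal numbers from 579 on, a range set after seeing the mice, 3 members were higher and 1 lower in KO against wildtype with LPS. Over all genes the shares were 2.04% and 1.64%. In that comparison Cysltr1 (log2FC 0.62, against -0.09 in all mice), Daglb (0.70), Pla2g15 (0.88) and Hpgd (0.92) also passed as higher, and Slco2a1 (-1.51) lost its call. At PBS the log2FC of Ptgs2 was 0.75, from 2 KO mice against 1 wildtype mouse. The cause was not tested. With the replicate block, 5 members were higher and 5 lower in both genotypes, since Alox5 passed in KO mice (adjusted p = 0.0380, and 0.0478 with the animal number as covariate), and Ptgis lost its call in wildtype mice (adjusted p = 0.0819). In KO mice up to 568, Ptgis lost its call (adjusted p = 0.133). Among the KO mice from 579 on, Ptger2 (adjusted p = 0.0501) and Alox5ap (adjusted p = 0.149) lost their calls, as did Zadh2, Ptgis, Mgst3 and Slco2a1 (0.111 to 0.246), and Alox5 gained one (log2FC -0.77, adjusted p = 0.0246), and in wildtype mice Pla2g4a (adjusted p = 0.252), Ptger3, Mgll, Cbr1, Zadh2, Mgst3 and Mboat7 (0.0597 to 0.310) lost theirs. A minimum of 10 counts in all libraries left out Ptger2, so 4 members were higher in each genotype. The depth limits Ptger2 most, with 2 to 9 counts at PBS. Groups of 4 or 5 mice leave intervals that do not exclude genotype differences of the sizes given, and with 2 mice against 2 or 1 a spread estimate rests on few libraries.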
